A study of Mus musculus with 16 samples.

Results

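Neat1 and Malat1 are neighbouring long noncoding RNA genes on mouse chromosome 19 that are transcribed from the same strand, and their break ends were followed in 16 BLISS libraries. They are 2 of the 32052 protein-coding and long noncoding genes of the GENCODE M21 annotation, and 2 of the 12582 that passed the filter on low counts. The pair was chosen by its counts of ends in the comparison of the hairpin lines, where Neat1 stood out, so the values between lines are a description and carry no test. An end was counted for a gene when it lay between the gene's annotated start and end. Over all libraries Neat1 held 5609 ends and Malat1 41141, of 11380784 ends on the main chromosomes.

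BLISS attaches an adapter to free DNA ends inside fixed cells, so that each sequenced molecule is meant to report the position of a double-strand break. Whether each end counted here is such a break was not tested. The study examined AB22, a line of mouse malignant mesothelioma cells, and its title concerns the protection that nucleosomes give DNA against radiation breaks. Both lines carry a doxycycline-inducible pTRIPZ hairpin, either a control (shCTRL) or one against HMGB1 (shHMGB1), a chromatin protein that bends DNA. All cells were selected with puromycin, kept in 5% oxygen, given doxycycline for 7 to 10 days and held in G1 before gamma rays from caesium.
The 8 groups were shCTRL and shHMGB1 cells at 0, 3, 5 and 10 Gy, with 2 libraries each. Each hairpin line was a selected, transduced population, so that the hairpin and the line cannot be told apart. The design text calls the 2 libraries biological replicates without giving their source, and p-values below rest on the spread among them alone, which may be technical.

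NEAT1 RNA is the scaffold of paraspeckles, nuclear bodies that gather RNA-binding proteins such as NONO and SFPQ. The gene makes a short polyadenylated RNA and, from the same start, a long RNA that is required for the body to form. MALAT1 RNA is among the most abundant nuclear RNAs and collects in nuclear speckles, which hold splicing factors. Its 3′ end is not made by ordinary polyadenylation: RNase P cuts just downstream of an A-rich stretch encoded in the gene, and the small RNA released is the tRNA-like mascRNA. Both genes are transcribed at high rates in many cultured cells.

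In mm10, Malat1 (ENSMUSG00000092341.3) occupies chromosome 19, 5795690 to 5802672, and Neat1 (ENSMUSG00000092274.3) occupies 5824708 to 5845478, both on the minus strand. Malat1 is 6983 bp long and Neat1 20771 bp. The longest transcript of each has no intron, so nearly all of the body is exonic. The short Neat1 isoform ends 3170 bp from its start, at 5842307. The annotation places small predicted RNAs inside both bodies, among them Gm37376 on the opposite strand of Malat1, and the files keep no strand, so ends of overlapping genes cannot be told apart.

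The ends began at the annotated starts, with few in the first 50 bases. The 250 bases before the Malat1 start held 2 ends in all 16 libraries, the first 50 bases of the gene 33 and the first 250 bases 4415. For Neat1 the corresponding numbers were 2, 13 and 623. Of the 4415 Malat1 ends, 3665 lay at a single position, base 134. The RefSeq promoter of Malat1 (GRCm38.p6, chr19:5802623-5802922, minus strand) is shown because this border lies in it. Capitals mark the 50 bases from the start onward. RefSeq matches were found for 1 of the 2 genes.
Malat1 promoter: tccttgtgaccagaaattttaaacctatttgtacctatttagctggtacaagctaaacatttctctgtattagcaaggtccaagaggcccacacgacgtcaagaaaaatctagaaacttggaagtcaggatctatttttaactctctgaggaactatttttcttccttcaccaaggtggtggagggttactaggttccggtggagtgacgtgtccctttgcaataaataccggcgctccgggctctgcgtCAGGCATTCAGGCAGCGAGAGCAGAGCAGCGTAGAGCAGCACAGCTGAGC

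Another border lay near the Malat1 3′ end, upstream of a run of 12 A that starts at base 6674 counted from the start. The last position with 16 or more ends, over all libraries together, lay 109 bases before the run. The 250 bases before the run held 1584 ends and the 310 bases from the run to the annotated end held 18. The sequence around the run is shown (mm10, chr19:5795963-5796024, minus strand, GENCODE M21 transcript), with the run in capitals.
Malat1 A-run: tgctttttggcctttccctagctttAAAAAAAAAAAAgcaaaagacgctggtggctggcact
In Neat1 the ends thinned out first near base 2200. The first 2200 bases held 4563 of its 5609 ends, and the 972 bases from there to the end of the short isoform held 298. They thinned out again at that end, with 176 ends in the last 500 bases before it and 28 in the next 500.

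Within these borders the ends were stacked on few positions. The Neat1 ends fell on 1262 positions, 6.08% of its bases, and the 10 most used positions held 32.5% of them. In Malat1 they fell on 3139 positions, 44.95% of its bases, and the 10 most used held 29.0%. In Malat1, 58 positions held an end in every library and together carried 50.7% of its ends. In Neat1 there were 5 such positions, with 26.7%. The sequences below are those of 4 Neat1 and 5 Malat1 positions with the most ends (41 bases, GENCODE M21 transcripts, gene strand). The end's own base is in capitals at the centre. The word GAT is in capitals where it starts 17 bases after the end.
Neat1 base 408: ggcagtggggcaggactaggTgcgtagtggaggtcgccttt
Neat1 base 2167: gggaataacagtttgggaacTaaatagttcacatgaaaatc
Neat1 base 447: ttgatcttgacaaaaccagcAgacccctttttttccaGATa
Neat1 base 703: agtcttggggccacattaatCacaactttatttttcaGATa
Malat1 base 134: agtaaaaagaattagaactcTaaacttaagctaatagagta
Malat1 base 2867: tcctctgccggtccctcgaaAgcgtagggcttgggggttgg
Malat1 base 1583: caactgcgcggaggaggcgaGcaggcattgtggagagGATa
Malat1 base 1461: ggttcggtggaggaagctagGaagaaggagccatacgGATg
Malat1 base 1518: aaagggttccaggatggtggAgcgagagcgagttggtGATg

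Base 408 of Neat1 (chromosome 19, 5845071) was its most used position, with 655 ends. It held 14.0 ± 2.57% of the Neat1 ends in shCTRL against 8.57 ± 2.21% in shHMGB1 (SD over 8 libraries). The second, base 2167, held 5.53 ± 1.495% and 8.05 ± 3.34%. In Malat1, base 134 (chromosome 19, 5802539) took 3665 ends, a share of 6.70 ± 3.10% in shCTRL and 10.1 ± 2.65% in shHMGB1. Base 2867 held nearly the same share in both lines, 4.90 ± 1.22% and 5.09 ± 1.303%. Of the 50 most used positions in each line, 35 were common to both lines in Neat1 (70.0% of each list) and 45 in Malat1 (90.0%).

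Many of the most used positions shared a short word at a fixed distance. The word GAT on the gene strand, at 17 to 19 bases downstream of the end, followed 19.5 ± 2.84% of the Neat1 ends and 31.5 ± 4.19% of the Malat1 ends (SD, n = 16). Of all bases, 1.06% in Neat1 and 1.53% in Malat1 have the word there. The lowest library was at 15.8% in Neat1 and 24.4% in Malat1, so that no library came near the share of bases. The mirror image, the same word on the opposite strand at the same distance on the other side, followed 0.6002 ± 0.562% and 0.484 ± 0.163% of the ends. All words of 3 bases were searched over a range of distances on the gene strand after the data had been seen. Pairs of word and distance were ranked by the share of distinct positions that have the word there, over all libraries together, divided by the word's frequency in the sequence. This pair ranked first in both genes, of 4466 pairs in the short part of Neat1 (4.49% of positions against 1.23%, a ratio of 3.65) and 4544 in Malat1 (3.22% against 1.53%, a ratio of 2.10). The next pairs, of other words, had ratios of 2.96 and 1.88. Neighbouring offsets in Malat1 held 1.01 ± 0.254% (16 bases) and 0.652 ± 0.201% (18 bases). Some farther offsets lay above the share of bases, such as 9.78 ± 3.04% (−28 bases, upstream) and 6.15 ± 1.17% (37 bases). In the short part of Neat1 an offset of 21 bases, where the word follows base 408, held 13.4 ± 3.796%. An offset of 29 bases held 8.71 ± 2.86% there. With each position of a library counted once, the word at 17 bases followed 15.02 ± 2.65% of the positions in Neat1 and 10.0 ± 2.75% in Malat1. The word was also found beside ends of other genes. Across 351 other genes with at least 200 ends in exons the median share was 1.82%, against a median of 1.29% of their bases. The 95th percentile was 42.2%, and 209 of the 351 genes lay above the share of their own bases. Neat1 lay above 250 of the 351 genes and Malat1 above 291.

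**Figure D1:**
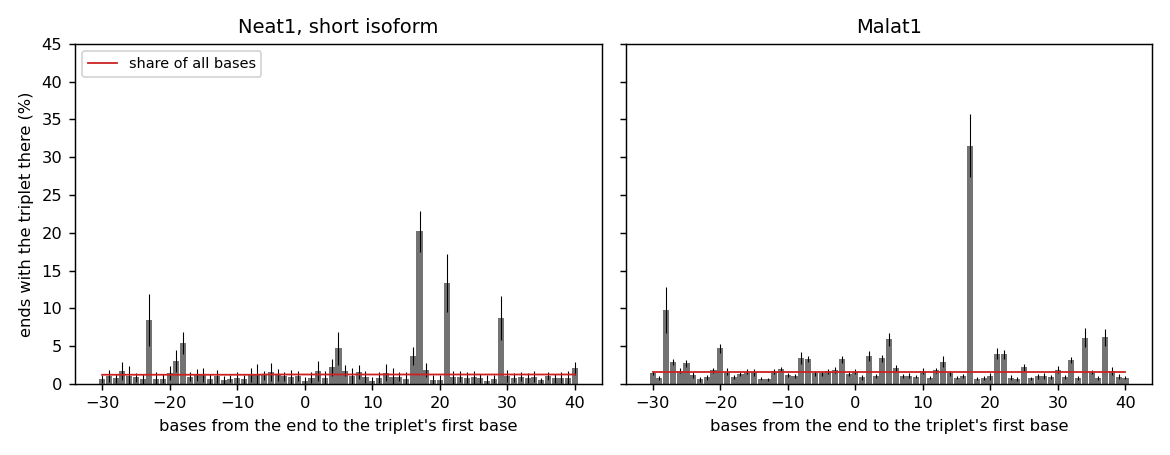
Share of ends (%, bars: mean of 16 libraries, error bars: SD) that have the searched triplet at each distance, in bases, from the end, for the short part of Neat1 and for Malat1. The red line is the share of all bases. At 17 bases the bar stands at 20.2% in the short part of Neat1 and 31.5% in Malat1, the highest of each panel.

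Density set the genes apart from the sequence around them. On the CPM scale, which divides the ends of a gene by all ends on the main chromosomes of the library, Malat1 ranked 13th and Neat1 56th in level among the genes tested. Per length, Malat1 stood at 537 CPM per kb (rank 18) and Neat1 at 25.6 CPM per kb (rank 79), against a median of 0.381. In the list of other nuclear long noncoding RNAs the 3 genes with the most ends were denser than both, with Gas5 at 869, Snhg1 at 876 and Snhg6 at 816 CPM per kb.

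The short part of Neat1 carried most of its ends. It held 86.2 ± 4.83% of the Neat1 ends (SD, n = 16), and its density was 18.6 to 74.8 times that of the part covered by the long isoform alone. The long-only part still lay above the sequence between the 2 genes, by 2.55 to 6.66 times in density. Malat1 lay 312 to 1019 times above that sequence and the short part of Neat1 65.1 to 374 times. Each of these ratios was above 1 in 16 of 16 libraries.

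**Figure D2:**
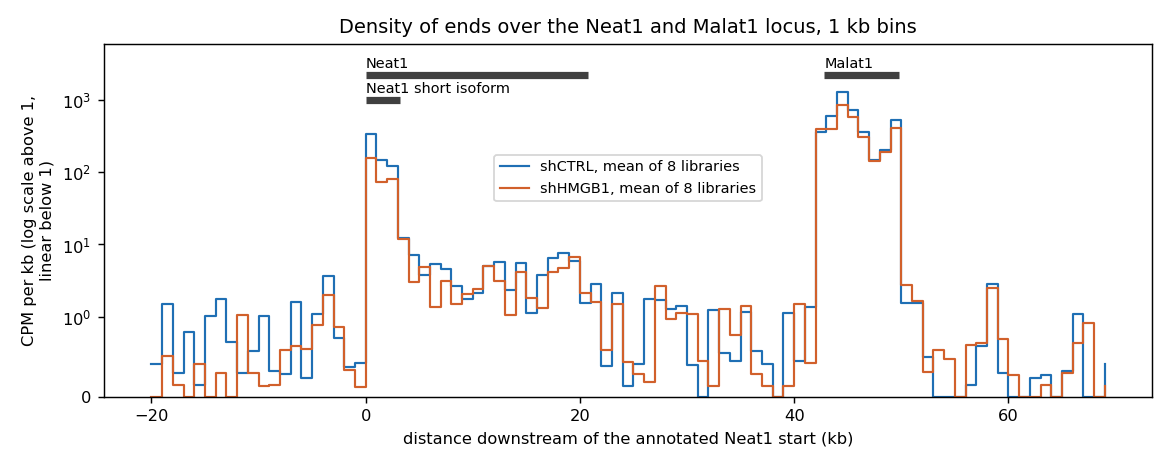
Density of ends in bins of 1 kb (CPM per kb, log scale above 1) against the distance in kb downstream of the Neat1 start, as the mean of 8 libraries per line, with the annotated bodies drawn above. The first kb of Neat1 stands at 338 in shCTRL and 156 in shHMGB1, and Malat1 forms the second block.

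Fewer ends fell in Neat1 in shHMGB1 than in shCTRL libraries at every dose, as a description. At 0 Gy the replicates 1 and 2 held 728 and 938 CPM in shCTRL and 565 and 425 CPM in shHMGB1. At 3 Gy they held 614 and 677 CPM against 349 and 163 CPM. The 2 lines did not overlap at these doses. At 5 Gy the values were 581 and 802 CPM against 356 and 323 CPM. At 10 Gy they were 516 and 674 CPM against 420 and 386 CPM. Nor did they overlap here, and 7 of the 8 shHMGB1 libraries lay below every shCTRL library. Over 8 libraries each, the mean was 691 ± 133 CPM in shCTRL against 374 ± 113 CPM in shHMGB1 (SD), an edgeR log2 difference of −0.85 ± 0.15 (SE). The share of all genes tested whose lines did not overlap at a dose is not given here, which also limits the Malat1 values below.

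Malat1 differed less. At 0 Gy it held 4004 and 5493 CPM in shCTRL and 3834 and 3962 CPM in shHMGB1. At 3 Gy it held 3408 and 4101 CPM against 2801 and 2156 CPM. These pairs did not overlap. At 5 Gy the values were 3662 and 5046 CPM against 2633 and 3176 CPM, again without overlap. At 10 Gy they were 3211 and 4820 CPM against 3447 and 4238 CPM, and the lines overlapped. The means were 4218 ± 820 and 3281 ± 721 CPM (SD, n = 8 each), with a log2 difference of −0.31 ± 0.18 (SE). Malat1 held 6.12 ± 0.524 ends for each Neat1 end in shCTRL and 9.22 ± 2.13 in shHMGB1.

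**Figure D3:**
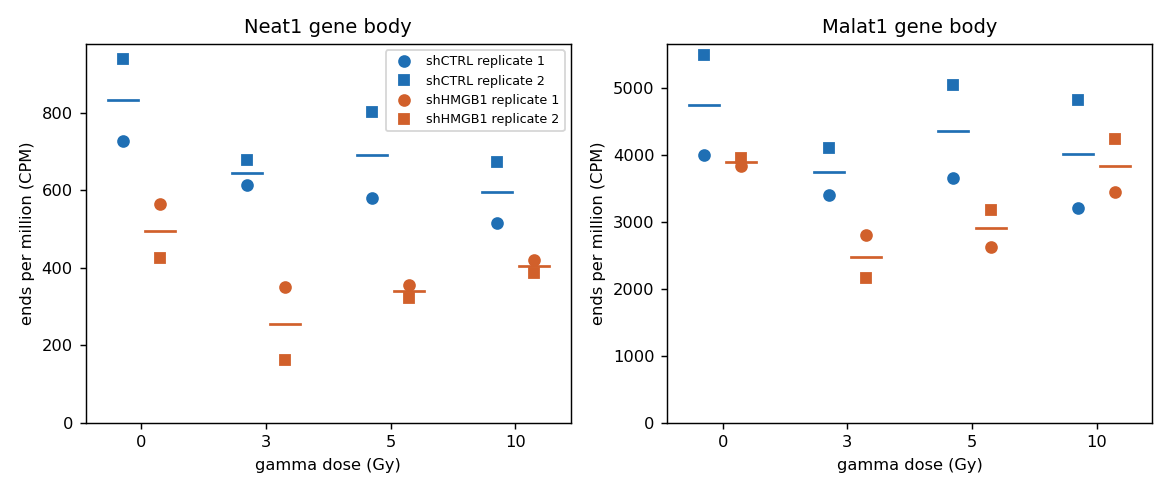
Scaled number of ends (CPM) in the bodies of Neat1 and Malat1 for each library, by dose in Gy. Colour gives the hairpin line, shape the replicate number and the short bar the mean of 2 libraries. Neat1 runs from 516 to 938 in shCTRL and from 163 to 565 in shHMGB1.

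Replicate number divided the libraries. In shCTRL replicate 2 was above replicate 1 at all 4 doses in both genes, with means of 773 ± 125 against 609 ± 88.7 CPM in Neat1 and 4865 ± 581 against 3571 ± 342 CPM in Malat1 (SD, n = 4 each). In shHMGB1 replicate 1 was instead above replicate 2 in Neat1 at all 4 doses. The Neat1 means were 423 ± 100 CPM in replicate 1 and 324 ± 116 CPM in replicate 2, and the Malat1 means 3179 ± 560 and 3383 ± 934 CPM. For Neat1 both shHMGB1 means lay below both shCTRL means, and for Malat1 they also did. These CPM do not include TMM, the scaling used in the edgeR tests. In shCTRL the TMM factors divided by number too, at 0.896 to 0.935 in replicate 1 and 1.014 to 1.137 in replicate 2. Dividing by them narrows the shCTRL split and at 3 Gy reverses its order in both genes. In shHMGB1 the factors overlapped, at 0.928 to 1.034 and 0.908 to 1.046. Whether the libraries of a number were prepared together is not given in the sources used here. If so, each line has 2 independent units, for which the smallest two-sided exact p is 0.333.

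The difference between lines was uneven along the genes. In the first 250 bases of Neat1 the level was 91.4 ± 30.2 CPM in shCTRL against 34.6 ± 15.9 CPM in shHMGB1 (SD over 8 libraries), a log2 ratio of the means of −1.40. Over the short part this ratio was −0.96 and over the long-only part −0.41. In the sequence between the genes it was −0.16. The first 250 bases of Malat1, which contain base 134, held 358 ± 190 CPM in shCTRL and 398 ± 120 CPM in shHMGB1, a ratio of 0.15. In 12 of the 14 bins of 500 bases along Malat1 the shHMGB1 mean was lower, as it was in the 7 of 7 bins that span the short part of Neat1 and in 30 of 42 over its whole body. Ends followed by the word GAT had a log2 ratio of −0.62 in Malat1, and ends without it −0.24. In Neat1 these ratios were −0.95 and −0.87.

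**Figure D4:**
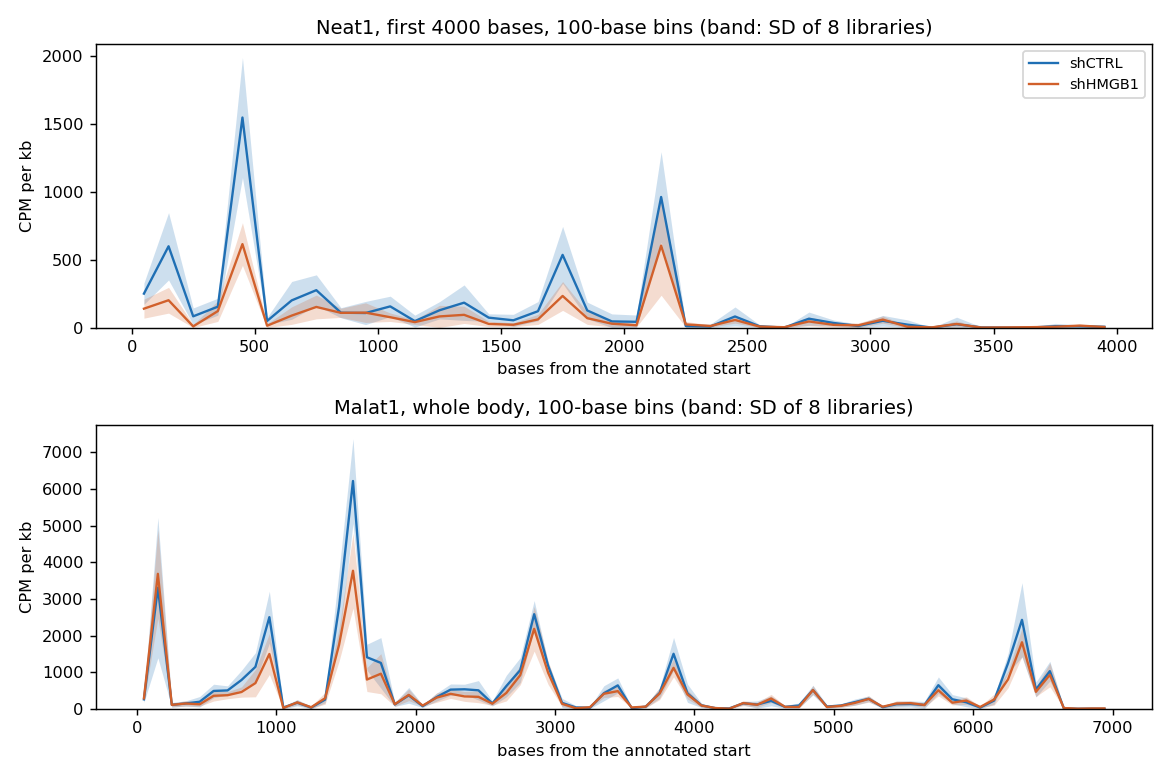
Density of ends (CPM per kb) in bins of 100 bases along the first 4000 bases of Neat1 and the whole of Malat1, counted from the annotated start. Lines are means and bands the SD of 8 libraries per hairpin line. The peaks stand at the same bases in both lines, and the tallest peaks are lower in shHMGB1 except the first of Malat1.

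Irradiation was the comparison that the choice of the genes did not use. Across all genes, 2 of 12582 differed between irradiated and 0 Gy libraries (edgeR quasi-likelihood test, Benjamini-Hochberg adjusted p under 0.05), or 0.0159% of those tested, and neither gene of the pair was among them. Neat1 averaged 664 ± 221 CPM in the 4 libraries at 0 Gy and 488 ± 186 CPM in the 12 irradiated ones (SD). In shCTRL the 0 Gy values of 728 and 938 CPM overlapped the irradiated range of 516 to 802 CPM. This overlap lay between replicate numbers. In replicate 1 the 0 Gy library held 728 CPM against 516 to 614 CPM after irradiation. In replicate 2 it held 938 CPM against 674 to 802 CPM. With a single 0 Gy library in each number, this order was not tested. In shHMGB1 the 0 Gy values of 565 and 425 CPM lay above the irradiated range of 163 to 420 CPM, without TMM. The closest were 0 Gy replicate 2 and 10 Gy replicate 1, and dividing by their TMM factors of 1.046 and 1.029 reverses their order. The share of all genes tested with 0 Gy libraries above the irradiated ones, in a line or a replicate number, is not given here. Over both lines the Neat1 log2 difference was −0.42 ± 0.16 (SE), which did not pass the test (edgeR unadjusted p = 0.0118, adjusted p = 0.594). Malat1 averaged 4323 ± 783 CPM at 0 Gy and 3558 ± 867 CPM after irradiation, a log2 difference of −0.24 ± 0.20 (SE, edgeR adjusted p = 0.823).

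The response to irradiation was also compared between the lines. The interaction was −0.13 ± 0.34 for Neat1 and −0.03 ± 0.40 for Malat1 on the log2 scale (SE, edgeR adjusted p = 0.995 and 0.999). Of 12582 genes, 0 had an interaction past the threshold (0.0%) with edgeR, 655 had an unadjusted p under 0.05, and DESeq2 also called 0.

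The distribution of ends within the genes was compared by an exact two-sided permutation test of the irradiated and 0 Gy labels within each line (784 arrangements), adjusted over 5 measures. The short part held 89.4 ± 3.68% of Neat1 ends at 0 Gy (n = 4) and 85.2 ± 4.83% after irradiation (n = 12, SD). The difference of −4.19 percentage points did not pass (exact p = 0.0765, adjusted 0.383). It was −0.72 points in shCTRL and −7.66 points in shHMGB1, and that difference between lines was not tested. The shHMGB1 value rests on 0 Gy shares of 93.1% and 85.3% in replicates 1 and 2. Without replicate 1 of these the difference over both lines was −2.25 points, and without replicate 2 it was −6.13 points. The first 1 kb of Neat1 held 45.2 ± 4.58% and 45.3 ± 4.95% of its ends (exact p = 0.941). In Malat1 the first 1 kb held 24.96 ± 2.71% at 0 Gy and 22.02 ± 4.43% after irradiation (exact p = 0.240, adjusted 0.400). Its last 1 kb held 12.4 ± 1.80% and 13.4 ± 2.08% (exact p = 0.415). The log2 ratio of Neat1 to Malat1 ends was −2.75 ± 0.339 and −2.94 ± 0.385 (exact p = 0.185, adjusted 0.400). The difference of −0.19 was −0.077 without shHMGB1 0 Gy replicate 1 and −0.31 without its replicate 2. It was −0.053 with each position of a library counted once and −0.35 in libraries thinned to 131430 ends.

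The levels of Neat1 and Malat1 were correlated over the libraries of each line, and only shCTRL passed, by Pearson's r alone. In shCTRL Pearson's r of their log2 CPM was 0.83 (n = 8, exact permutation p = 0.0143, adjusted over the 2 lines 0.0285) and Spearman's rho was 0.79 (exact p = 0.0279, adjusted 0.0559). Without the 2 libraries farthest from the Malat1 median, 0 Gy replicate 2 and 10 Gy replicate 1, r was 0.64 (n = 6, exact p = 0.183). Fewer libraries and a narrower range enter that value, and the call was also lost without other single libraries, 3 Gy replicate 2 (r = 0.80) or 5 Gy replicate 1 (r = 0.83). In shHMGB1 r was 0.66 (n = 8, exact p = 0.0562, adjusted 0.0562) and rho 0.71 (exact p = 0.0576). Without its 2 farthest libraries r was 0.31 (n = 6, exact p = 0.585). Both genes share the library and its total, and the permutations exchanged libraries across doses and replicate numbers. Within a replicate number a line has 4 libraries, too few for a correlation.

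With the mean of each line subtracted, r between the pair was 0.70 over the 16 libraries. Of 1245 other genes with a mean of at least 50 ends, 33 were more alike to Neat1 than Malat1 was, and 9 were more alike to Malat1 than Neat1 was. Among the closest to Neat1 were Zc3h7a, a zinc finger protein (r = 0.90), Kirrel3, a cell adhesion protein (0.87), Ccnl2, a cyclin of nuclear speckles (0.86), and Khdrbs1, the RNA-binding protein Sam68 (0.83). The closest to Malat1 were Pkm, a pyruvate kinase (0.84), Runx2, a bone transcription factor (0.84), Nedd4, a ubiquitin ligase (0.81), Osbpl3, an oxysterol-binding protein (0.81), and Mecom, a zinc finger transcription factor (0.77). The median r over all 1245 genes was −0.02 with Neat1 and close to 0 with Malat1.

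The genes within 100 kb did not pass the test between lines. There were 16 besides the pair, 10 of them passed the filter, and edgeR called 0 of these 10, where it called 0.246% of all genes tested. At an unadjusted p under 0.05 there were 3, where 9.77% of all genes passed that level. DESeq2 gave only 1 of the 10 an adjusted p and called 0, with 2 at an unadjusted p under 0.05. Map3k11, a kinase of the JNK pathway, held 26.1 ± 13.9 CPM in shCTRL and 13.6 ± 6.38 CPM in shHMGB1 (log2 difference −0.76 ± 0.30, edgeR adjusted p = 0.366). Ltbp3, a binding protein of latent TGF-beta, held 41.1 ± 5.95 and 28.1 ± 8.35 CPM (−0.52 ± 0.21, edgeR adjusted p = 0.385). Frmd8, which starts beyond Neat1, held 19.5 ± 14.6 and 9.67 ± 3.32 CPM (−0.75 ± 0.36, edgeR adjusted p = 0.474). Among the others were Ehbp1l1 (−0.14), Kcnk7 (−0.57), Cdc42ep2 (−0.43), Gm16538 (−0.09), Dpf2 (0.10) and Pola2 (0.15). The median log2 difference of the 10 was −0.40, against 0.04 over all genes tested. With irradiation 0 of the 10 were called by edgeR (0.0159% of all genes tested) or DESeq2, and 2 had an unadjusted p under 0.05 in edgeR, as did 6.97% of all genes. These were Gm16538 (−2.12 ± 0.66, edgeR adjusted p = 0.427) and Dpf2, a chromatin-remodelling subunit (−0.80 ± 0.34, edgeR adjusted p = 0.655).

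Genes of the 2 nuclear bodies were taken from lists. Of 40 paraspeckle protein genes 36 were tested, and edgeR called 0 between lines, with 3 at an unadjusted p under 0.05, against 9.77% of all genes at that level. DESeq2 gave none of the 36 an adjusted p in this comparison and had 2 under 0.05 unadjusted. Their median log2 difference was −0.19. The 3 with the most ends were Smarca4, the BRG1 remodelling ATPase (−0.03 ± 0.16), Ubap2l (−0.05 ± 0.19) and Hnrnph1, a splicing regulator (−0.11 ± 0.19). Of 38 nuclear speckle genes 34 were tested, with a median of −0.25, and edgeR called 1, lower in shHMGB1, where it called 0.246% of all genes. At an unadjusted p under 0.05 there were 6 of the 34, against 9.77% of all genes. DESeq2 gave 3 of them an adjusted p and called 0. This was Rbm25, a splicing factor, whose libraries ran from 60.9 through a median of 102 to 148 CPM in shCTRL and from 38.7 through 69.4 to 94.97 CPM in shHMGB1. The lines overlapped, and the log2 difference was −0.71 ± 0.17 (SE, edgeR adjusted p = 0.0371). Without shCTRL 3 Gy replicate 1 it was −0.41, and the call was lost on leaving out 8 of the 16 libraries singly (edgeR adjusted p up to 0.393). These were shCTRL 0, 3, 5 and 10 Gy replicate 1 and 5 Gy replicate 2, and shHMGB1 0, 5 and 10 Gy replicate 2. Ddx39b, an RNA helicase of mRNA export, held 318 ± 162 and 214 ± 53.1 CPM (−0.42 ± 0.15, edgeR adjusted p = 0.304). Srrm2, a core protein of speckles, was at −0.25 ± 0.15 and Sf3b3, a subunit of the U2 particle, at −0.33 ± 0.15.

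The list of other nuclear long noncoding RNAs had 46 names, of which 38 were in the annotation and 28 were tested. None of the 28 was called between lines by edgeR, 7 had an unadjusted p under 0.05 (9.77% of all genes did), and DESeq2 called 1, Gas5, of the 10 it gave an adjusted p. Gas5, a snoRNA host gene, held 4222 ± 1533 CPM in shCTRL and 2933 ± 847 CPM in shHMGB1 (−0.44 ± 0.18, edgeR adjusted p = 0.368). The other hosts with the most ends were Snhg1 (−0.27 ± 0.17) and Snhg6 (−0.13 ± 0.18). The median of the list was −0.18. With irradiation 0 genes of these 3 lists were called by edgeR or DESeq2, with 3, 3 and 4 at an unadjusted p under 0.05 in edgeR (6.97% of all genes were) and medians of −0.26, −0.18 and −0.07, against 0.01 over all genes tested.

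The libraries themselves differed in ways that bear on these values. They held 131430 to 1010888 ends on the main chromosomes, and the smallest was shCTRL 3 Gy replicate 2. Hmgb1, the targeted gene, ran from 31.2 through a median of 37.7 to 56.1 CPM in shCTRL and from 27.97 through 41.5 to 73.1 CPM in shHMGB1 (log2 difference 0.16 ± 0.20, edgeR adjusted p = 0.844). This count of ends was not compared with the RNA or protein of the gene, so it is no check of the knockdown. The 10 mesothelial markers summed to 45.3 to 91.3 CPM in shCTRL and 36.0 to 72.0 CPM in shHMGB1. Their 3 tested genes were at −0.75 (Msln), −1.05 (Pdpn) and 0.87 (Wt1), and edgeR called 0 of them (0.246% of all genes), with 3 at an unadjusted p under 0.05 (9.77% of all genes). The 10 blood cell markers summed to 35.7 to 84.5 and 49.7 to 86.3 CPM, and Hba-a1 had 0 ends. The part of these markers in the differences was not tested.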

How the data were processed

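BLISS ends of 16 libraries were analysed. The labels give 2 libraries for each hairpin and dose. Per the submitters' processing notes, the authors used Trimmomatic 0.32, UMI-tools, BWA 0.7.5-r404, SAMtools and bedtools with the build mm10. Order and settings are not given in the sources used here. The deposited files list raw counts of ends per cluster, not normalized, and the 0-based position of every end, with no strand. Positions were converted to 1-based. Molecules may be lost or stacked by duplicate removal and by mapping, and stacked ends weigh on counts of a gene.

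Ends on the main chromosomes were counted in GENCODE M21 gene bodies. CPM divides a gene's ends by these. The quasi-likelihood test of edgeR 4.0.16 under R 4.3.3 (glmQLFit, then glmQLFTest) compared means of the 8 groups, which shared 1 estimate of the spread. Low counts were removed by filterByExpr, scaling was by TMM, and calls needed a Benjamini-Hochberg adjusted p under 0.05. Correlations used log2 CPM with TMM factors and a prior count of 2. Shares were tested by exact permutation. The edgeR fit and the exact test of shares were also run on simulated data, in which libraries were independent. Totals of 131430 to 1010888 ends per library gave Neat1 few ends in the long-only part, and small counts limit the precision. DESeq2 1.42.0 and the other alternatives are listed in the closing section. Other steps ran in Python 3.11.15 (scipy 1.17.1, numpy 2.4.6, pandas 2.3.3, matplotlib 3.10.9).

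Named genes were the pair, Hmgb1, tested genes within 100 kb, the 3 genes of a list that held most ends, list genes past the test, and the 5 genes most alike to each of the pair (predicted Gm genes left out of these). The pair and the lists were chosen with earlier results of these data known. The word of 3 bases was searched after the data were seen. Some genes that this rule names are not reported here.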

Additional observations from a re-analysis of the deposited data

How the results depend on the processing

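Alternatives were the DESeq2 Wald test, library totals without TMM, DESeq2 size factors, no filter on low counts, distinct positions, a replicate block and each library left out. For the levels of the pair between lines and with irradiation, a ratio to the local background was added to these. Chosen after seeing the data were a replicate block within each line, at most 3 ends per position, ends without the word GAT and an exact test of a single gene. With 1 library left out its group has a lone library, assumed to vary like the others. The Neat1 difference between lines ran from −1.004 to −0.61 on the log2 scale over all of these and the Malat1 difference from −0.38 to −0.23. Without single libraries they ran from −1.004 to −0.74 and from −0.35 to −0.26. For irradiation Neat1 ran from −0.55 to −0.28 and Malat1 from −0.32 to −0.20, and no alternative adjusted over all genes passed. The exact permutation test of Neat1 alone, not adjusted over genes, gave −0.50 (exact p = 0.0332), and −0.46 without the word GAT (exact p = 0.0319). Against the local background it was −0.39 (exact p = 0.0676). The interaction turned to 0.11 for Neat1 with distinct positions. Without single libraries it ran from −0.33 to 0.10 for Neat1 and from −0.17 to 0.091 for Malat1.

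Called nuclear speckle genes between lines numbered 1, and 0 with DESeq2 (which gave 873 genes an adjusted p, Rbm25 not among them) or without the filter. They numbered 3 with distinct positions (Rbm25, Pnn, Ddx39b) and 3 with the replicate block within each line, and 0 to 3 with single libraries left out. Called long noncoding genes numbered 0, and 1 with DESeq2, 3 with distinct positions, 2 with the block within each line, 2 with at most 3 ends per position, and 0 to 2 without single libraries. Paraspeckle genes numbered 0, and 1 (Hnrnpa2b1) with the block within each line. Over all genes 31 were called between lines, and 69 with distinct positions, 134 with the block within each line, and from 7 (without shHMGB1 0 Gy replicate 2) to 139 (without shHMGB1 3 Gy replicate 1) with 1 library left out. With the block within each line 19 genes were called for irradiation, against 2.

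The share of Neat1 ends in the first 1 kb moved with irradiation by −1.14 to 1.38 percentage points without single libraries. The share of Malat1 ends in its first 1 kb moved by −4.22 (without shHMGB1 0 Gy replicate 1) to −1.67 points (without its replicate 2), and by −0.65 with distinct positions. The share of Malat1 ends in the last 500 bases moved by −0.27 points. The correlation in shCTRL ran from 0.74 to 0.93 without single libraries, and no longer passed without 0 Gy replicate 2 (r = 0.74), 3 Gy replicate 2 (0.80), 5 Gy replicate 1 (0.83) or 10 Gy replicate 1 (0.78). In shHMGB1 it ran from 0.40 to 0.76, and passed with library totals without TMM (r = 0.81), with distinct positions (0.75) and without 10 Gy replicate 2 (0.76). Deviations of same-numbered libraries correlated at 0.03 to 0.07 within lines and −0.10 to 0.03 between lines at the same dose. Low counts can weaken these, so pairing was not settled. With the replicate block 39 genes were called between lines and Rbm25 kept its call (edgeR adjusted p = 0.0154).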
